A study of Mus musculus with 9 samples.

Results

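The regions described are the 3' UTR stretches of mouse liver mRNA where Argonaute (AGO) reads were found over a match to the seed of miR-122. AGO holds a microRNA and is guided by it to mRNAs, and CLIP-seq reads out the RNA fragments crosslinked to AGO by ultraviolet light. Membership rested on the labels of a region: it counted when at least 1 deposited row gave it a miR-122-5p match and the class 3' UTR. This rule took 2175 of 92645 regions, in 1832 genes, with 1 region left without a gene. The rule itself was chosen with earlier results of these data known. Livers came from 4 mice with miR-122 deleted (KO, 1 female and 3 males) and 5 floxed littermates that the labels call WT (3 females and 2 males). All mice were 6 weeks old and each library came from 1 mouse; neither the Cre driver nor the strain is given in the sources used here. The libraries held 612479 to 1070610 counts in KO and 445912 to 1170130 in WT, and levels are given as CPM, each count divided by the total of its library and scaled to the same sum. The region over the Mir122 hairpin held 2.92 to 51.7 CPM in KO and 332 to 630 CPM in WT, so every KO library was below every WT library, and none was free of reads there. KO replicate 4 stood apart from the other libraries: 23 neuron markers with a region summed to 9977 CPM there, against 2364 to 3132 CPM in the other KO libraries and 44.3 to 57.8 CPM in WT.

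A microRNA finds its targets mainly by pairing its seed, bases 2 to 8 from its 5' end, with a complementary run in the mRNA, and AGO then brings in proteins of the TNRC6 family, through which the poly(A) tail is shortened and translation repressed. The matches are graded from the 8mer, which pairs the whole seed and has an A opposite the first base, through the 7mer-m8 and the 7mer-A1 to the 6mer. The 3' UTR is the region where such pairing is best known to lower mRNA levels. miR-122 is the dominant microRNA of hepatocytes and is known for its part in lipid and iron metabolism.

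The letters of the matches were read where the deposited coordinates fell inside RefSeq promoter windows (GRCm38.p6, the assembly that mm10 denotes). All 65 miR-122 matches inside these windows read CACTCC, and the flanking bases of 62 of 62 matches fitted the deposited class. Only 2 members lay in such windows, a 6mer of Homer2, a scaffold protein gene, and a 6mer of Slc4a8, a sodium bicarbonate transporter gene. They are shown with 3 matches outside 3' UTRs that spell the longer classes, in Csnk1e and Aamp (coding sequence) and Cxcl1 (5' UTR). Each site is written 5' to 3' on the mRNA strand with the match in capitals.
Homer2, 6mer, chr7:81610132-81610153, minus strand: ttgtgccgtccgctCACTCCtc
Slc4a8, 6mer, chr15:100815769-100815790, plus strand: tggaagcattcagtCACTCCcg
Csnk1e, 8mer, chr15:79426459-79426480, minus strand: gcatcgagtacatACACTCCAa
Aamp, 7mer-m8, chr1:74281107-74281128, minus strand: cctgtctacgcagACACTCCgg
Cxcl1, 7mer-A1, chr5:90891262-90891283, plus strand: ctaaccagttccagCACTCCAg
The Homer2 site held 1 read over the KO libraries and 11 over the WT libraries. At the Slc4a8 site 18 reads were counted in KO and 1 in WT.

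Other microRNAs have matches in the same regions, and their mature sequences (RefSeq, GRCm38.p6) are shown because several results below turn on them. Capitals mark the seed, bases 2 to 8.
mmu-miR-130a-3p: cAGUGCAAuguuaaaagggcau
mmu-miR-301a-3p: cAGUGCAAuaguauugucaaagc
mmu-miR-19a-3p: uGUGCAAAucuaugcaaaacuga
mmu-miR-103-3p: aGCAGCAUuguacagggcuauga
mmu-miR-15a-5p: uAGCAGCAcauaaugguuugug
mmu-let-7a-5p: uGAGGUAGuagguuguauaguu
mmu-miR-30a-5p: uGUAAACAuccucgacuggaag
mmu-miR-23a-3p: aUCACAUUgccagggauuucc
mmu-miR-26a-5p: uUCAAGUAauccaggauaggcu
mmu-miR-29a-3p: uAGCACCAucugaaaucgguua
miR-130a and miR-301a share their seed and are called the miR-130 family here. The match of the first 6 letters of that seed is TGCACT, whose last 4 letters are the first 4 of CACTCC, so that TGCACTCC holds both matches. For miR-19 the match TTGCAC shares 3 letters with CACTCC, and TTGCACTCC holds both. This longer run contains TGCACTCC and so also holds the miR-130 match.

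The members were short: 1912 of them (87.9%) were 70 bases wide and the longest was 205. A single miR-122 match was listed in 2116 members, 2 matches in 57 and 3 matches in 2. The best match was an 8mer in 246 members, a 7mer-m8 in 420, a 7mer-A1 in 539 and a 6mer in 970. Of the genes, 1535 had 1 such region, 256 had 2 and 41 had 3 or more. A RefSeq gene of the same name covered 2032 members (93.4%), and named regions outside that count are pointed out. The regions named for Nap1l5, Insig1, Tspyl1 and Zfp91 are also overlapped by another RefSeq gene (Herc3, Gm35223, Gm26564 and Gm44505 in this order), so their reads may be shared.

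Together the members took 1.12%, 0.994%, 1.05% and 1.23% of all counts in the 4 KO libraries, against 4.96%, 4.03%, 5.04%, 5.34% and 4.56% in the 5 WT libraries. The means were 1.10% ± 0.101 in KO (SD, n = 4) and 4.78% ± 0.505 in WT (SD, n = 5), a WT share 4.36 times the KO share. No KO value reached the lowest WT value. Among 3' UTR counts alone, the members made up 2.85% to 3.58% in KO and 15.4% to 17.6% in WT. The 27403 regions of 3' UTRs with no miR-122 match took 33.4% ± 1.16 of counts in KO and 21.6% ± 1.07 in WT, so the members' loss stood against a higher share for the other 3' UTR regions. Read counts from AGO follow both binding and the amount of the mRNA, which was not analysed here, and in bulk liver fewer cells of a type and less RNA per cell cannot be told apart.

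The 8mer members had the largest ratio of WT to KO shares and the 6mer members the smallest. 8mer members held 0.0901% ± 0.0122 of counts in KO and 0.625% ± 0.0988 in WT, a ratio of 6.93 in favour of WT. For 7mer-A1 members the shares were 0.233% ± 0.0245 in KO and 1.51% ± 0.174 in WT, a ratio of 6.51. The other kind of 7mer changed less: 7mer-m8 members held 0.213% ± 0.0163 in KO and 0.888% ± 0.116 in WT, a ratio of 4.17. The 6mer members, the largest class, held 0.561% ± 0.0491 in KO and 1.76% ± 0.185 in WT, a ratio of 3.13. In each of the 4 classes all KO libraries lay below all WT libraries.

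**Figure D1:**
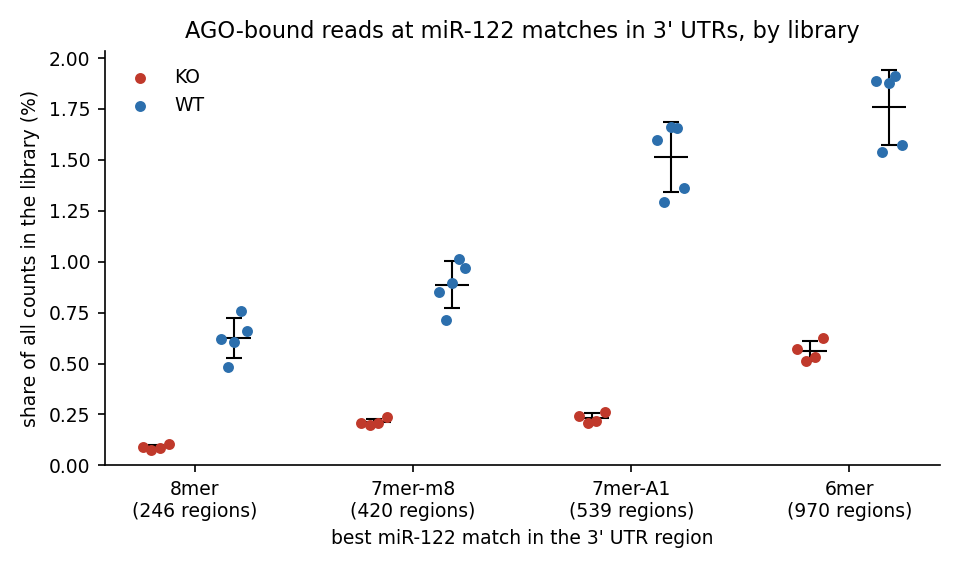
Percent of all counts in each library over members of the 4 match classes, with KO left of WT, points for libraries and lines for group means. In each class the KO points lie below all WT points, with 8mer members at 0.0765 to 0.106% in KO and 0.482 to 0.756% in WT.

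Region by region, edgeR's quasi-likelihood test over all 17182 regions that passed the low-count filter gave values for 816 members. Of these, 680 fell in KO, 19 rose and 117 did not pass at an adjusted p of 0.05. Over all tested regions 27.6% fell and 17.5% rose. The filter asks for 9.94 CPM in at least 4 libraries, and 684 of the members passed it through the WT libraries only, and since a member enters this way only with fewer such libraries in KO, its direction was largely set by the filter. Of the 80 members with enough reads in both groups alike, 40 fell, 4 rose and 36 did not pass. The 1359 members below the filter had a median of 5 reads over the KO libraries and 19 over the WT libraries. Their KO mean was lower in 1082 and higher in 277, and their summed counts were 11544 in KO and 30772 in WT. Without KO replicate 4, 828 members fell and 25 rose. Without WT replicate 4, the deepest library, 577 members were tested, of which 465 fell and 12 rose.

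The median log2 fold change, KO over WT, of the tested members was -3.18, beside 0.03 for all tested regions and 0.54 for the 5757 tested 3' UTR regions with no miR-122 match, of which 420 (7.30%) fell. Every KO library was below every WT library in 631 members, while over all tested regions this held for 24.0%. By class, 109 of 117 tested 8mer members fell with a median of -3.85, 213 of 236 7mer-A1 members with -3.34, 130 of 152 7mer-m8 members with -3.16 and 228 of 311 6mer members with -2.57. The 14 tested members without any KO read left the median at -3.18 when set at their lower bound. The WT level that the filter asks of them places each bound below that median, so it could not have moved. In the authors' deposited table the median WT over KO log2 value of the same 816 regions was 3.59, and 798 had the same direction as in the fit. A test of the difference in KO effect between sexes (edgeR's genotype by sex term) called none of the members, with a lowest adjusted p of 0.526, and 0% of all regions. At an unadjusted p under 0.05 that term held for 68 members, 8.33%, against 7.25% of all tested regions, and female KO was a single library.

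**Figure D2:**
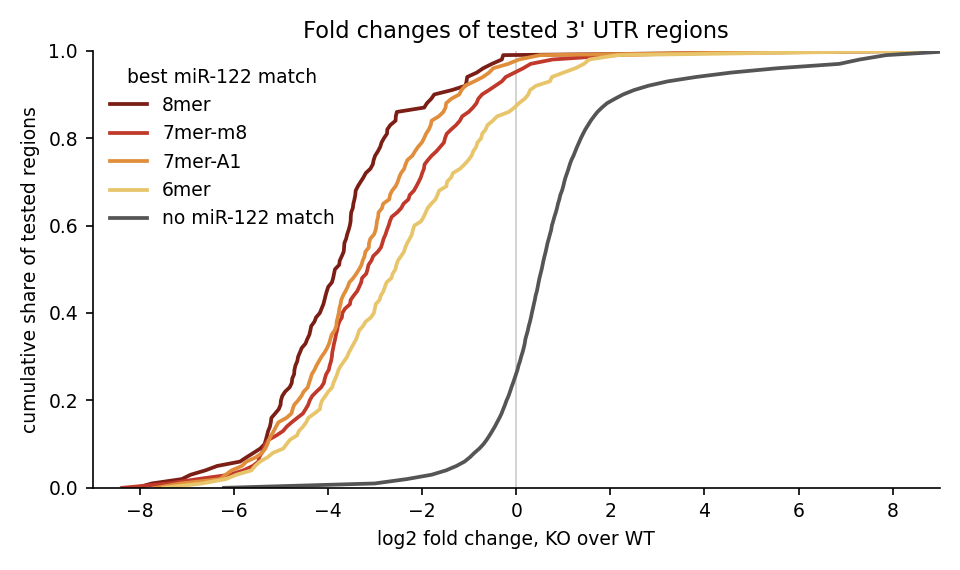
Cumulative share of tested 3' UTR regions by log2 fold change, KO over WT, for the 4 match classes and for regions with no miR-122 match. The 8mer line (median -3.85) lies farthest left and the 6mer line (median -2.57) nearest to the regions with no match (median 0.54).

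The highest WT levels were those of Slco1b2 and G6pc. Slco1b2, a hepatocyte uptake transporter for organic anions, carried a 6mer in the region chr6:141686230-141686299 (mm10, as all positions of members below) and held 45.7, 18.5, 23.4 and 16.3 CPM in KO, against 1518, 1603, 1180.2, 1399 and 1005 CPM in WT. It fell by 5.61 on the log2 scale (SE 0.31, adjusted p = 1e-08) and no KO value came near the WT range. G6pc, the catalytic subunit of glucose-6-phosphatase and the last enzyme of glucose release, also had only a 6mer (chr11:101377571-101377640), with 42.7, 63.3, 48.6 and 49 CPM in KO and 1689.9, 536, 1133, 682 and 379.9 CPM in WT. Its fold change was -3.84 (SE 0.43, adjusted p = 1.95e-06). The groups did not overlap, although the WT livers differed among themselves more than 4 times, from 379.9 to 1689.9 CPM. The third 6mer by WT level lay in Zkscan1, a zinc finger transcription factor gene, at 8.93 ± 5.62 CPM in KO and 278 ± 48.4 CPM in WT (log2 -4.99, adjusted p = 2.73e-08). Here and below, means of a region are given with their SD over 4 KO and 5 WT libraries.

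Of the 7mer-A1 members the highest WT levels stood in Lgals3bp, a secreted galectin-binding glycoprotein, Ireb2, and the unnamed gene 2900026A02Rik. Ireb2 encodes iron regulatory protein 2, which controls mRNAs of iron uptake and storage. Its region (chr9:54910311-54910380) also had a 7mer-m8 of miR-378a and a 6mer of miR-130. It held 26.8, 0.975, 12.1 and 9.8 CPM in KO, against 686, 637, 525, 504 and 379.9 CPM in WT. This was a log2 fold change of -5.33 (SE 0.44, adjusted p = 7.51e-08), with KO replicate 2 down to a single read. Lgals3bp averaged 18.1 ± 6.59 CPM in KO and 697 ± 118 CPM in WT. For 2900026A02Rik the means were 11.4 ± 2.73 CPM in KO and 497 ± 105 CPM in WT (log2 -5.40, adjusted p = 1.01e-08).

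Among the 8mer members, Pxmp4, a peroxisomal membrane protein gene, had the highest WT level and one of the smaller losses. Its region (chr2:154587653-154587788) held 54.6, 42.9, 69.1 and 35.9 CPM in KO and 349.5, 325, 326, 334 and 411 CPM in WT, a log2 fold change of -2.87 (SE 0.26, adjusted p = 1.74e-07). The match stood 34 bases 3' of the centre, and the region also held 7mer-m8 matches of miR-22 and of the miR-125 family. Bmp1, which encodes the protease that trims procollagen, had its 8mer 10 bases from the centre and no match of another family (chr14:70475107-70475176). It held 5.96, 1.95, 1.87 and 3.27 CPM in KO, against 151, 137, 167, 179 and 205 CPM in WT, and fell by 5.74 on the log2 scale (SE 0.37, adjusted p = 1.39e-08). The region that the file assigns to Camta1 averaged 10.8 ± 2.26 CPM in KO and 263 ± 42.7 CPM in WT (log2 -4.72), but it lies over Vamp3 and Gm38529 in RefSeq, so its gene is uncertain.

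The 7mer-m8 members with the highest WT levels differed in the size of their change. Tnrc6a encodes the AGO partner GW182, part of the silencing machinery itself. Its region (chr7:123193073-123193188) held 321, 365, 361 and 217 CPM in KO and 388, 395, 411, 459 and 375 CPM in WT, with log2 -0.44 (SE 0.22) and an adjusted p of 0.116 that missed the threshold, although every KO value was below every WT value. The same 116 bases held 8mers of miR-23 and miR-26, whose sequences are shown above. Mal2, needed for moving membrane proteins across hepatocytes, had 37.8, 21.4, 24.3 and 29.4 CPM in KO and 211, 164, 277, 286 and 345 CPM in WT (log2 -3.28, SE 0.31, adjusted p = 3.52e-07). Slc25a51, the mitochondrial NAD carrier, was at 3.15 ± 2.68 CPM in KO and 247 ± 42.1 CPM in WT (log2 -6.20, adjusted p = 1.6e-08). Neither of these had a match of another listed family.

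**Figure D3:**
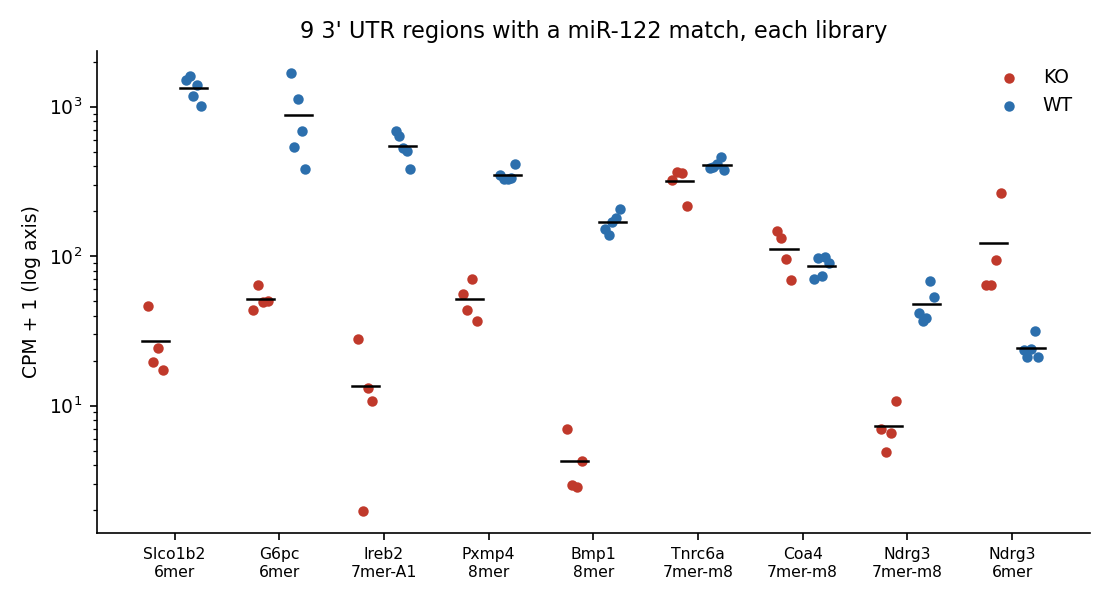
CPM plus 1 on a log axis in each library for 9 member regions, with KO left of WT and lines at group means. Slco1b2, G6pc, Ireb2, Pxmp4, Bmp1 and the Ndrg3 7mer-m8 region are lower in every KO library, as is Tnrc6a by a narrow gap. Coa4 overlaps between groups, and the Ndrg3 6mer region is higher in KO (63.3 to 264 CPM) than in WT (20.1 to 30.8 CPM).

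Where the match lay in the region went with how much was lost. The middle of the match was a median of 5 bases 3' of the region's centre (quartiles 0 and 10), and 62.2% of the members had it within 10 bases. For the matches of the other families in 3' UTR regions with no miR-122 match, 48.5% of 40115 lay that close. That figure counts every match, while members and coding sequence regions were counted by their best match only. In coding sequence 65.2% of regions had their best miR-122 match that close. Members that fell had the match within 10 bases in 69.1% of cases, those that did not pass in 35.0%, those that rose in 26.3% and those below the filter in 61.5%. With the match within 10 bases of the centre, 470 of 516 tested members fell, 5 rose and the median log2 fold change was -3.60. At more than 20 bases, 119 of 184 fell, 9 rose and the median was -1.80. This split was widest for 6mers, of which 161 of 187 fell near the centre (median -3.34) and 39 of 80 beyond 20 bases (median -0.97). For 8mers the medians were -3.89 and -3.24. Shares of all counts, which need no filter, gave WT over KO ratios of 6.72 within 10 bases, 3.13 from there to 20 bases and 2.27 beyond.

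The sides of the centre differed as well. Of 22 tested members with the match between 10 and 20 bases 5' of the centre, 12 fell and the median log2 fold change was -1.35. At the same distance on the 3' side 79 of 94 fell and the median was -3.07. Beyond 20 bases the medians were -1.38 on the 5' side (51 of 92 fell) and -1.99 on the 3' side (68 of 92 fell).

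Regions that also held a strong match of another microRNA lost fewer of their reads. A match of at least 1 other listed family was present in 1102 members (50.7%). Where there was none, 337 of 374 tested members fell and the median log2 fold change was -3.66. With other 6mers only, 154 of 172 fell (median -3.32), and with a 7mer or 8mer of another family 189 of 270 fell, 9 rose and 72 did not pass (median -2.16). The WT over KO ratios of the summed shares ran the same way, at 5.92, 5.38 and 2.89. Within each miR-122 class the median was nearer to 0 with such a match than with none: -3.05 against -4.04 for 8mers, -2.07 against -3.69 for 7mer-m8, -2.41 against -3.78 for 7mer-A1 and -1.48 against -2.99 for 6mers.

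Position and company both separated the members. The 263 members wider than 70 bases had more room for distant matches and for other families, and the part of region width was not tested. With no other family and the match within 10 bases, 264 of 283 fell (median -3.80). With the match beyond 20 bases and a 7mer or 8mer of another family, 56 of 97 fell (median -1.37). The mixed cases lay between these, at -3.05 with such a match and a central miR-122 site (105 of 128 fell) and at -2.19 with none and a distant site (31 of 46 fell).

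The members that did not pass were named for that outcome, so they cannot show a part of position or company. After Tnrc6a, the highest WT level among them was that of Tnfrsf1b, a TNF receptor gene, with a miR-122 6mer and a let-7 8mer (chr4:145214980-145215049). It held 102, 155, 110.2 and 81.6 CPM in KO and 156, 87.5, 162, 105 and 150.3 CPM in WT, and the groups overlapped (log2 -0.32, SE 0.28, adjusted p = 0.376). Zfp91, a zinc finger ubiquitin ligase gene, had a 7mer-m8 of the miR-29 family and averaged 106 ± 39 CPM in KO and 91 ± 23.6 CPM in WT (adjusted p = 0.39). Coa4, a cytochrome c oxidase assembly factor gene, had a 7mer-m8 of let-7 and an 8mer of miR-30 beside a miR-122 7mer-m8 only 3 bases from the centre. Its region (chr7:100539541-100539610) held 147, 132, 94.3 and 68.6 CPM in KO and 69.1, 96.4, 73, 98.3 and 88.6 CPM in WT, again with overlap (log2 0.33, SE 0.25, adjusted p = 0.3). Trim6, a ubiquitin ligase gene with a let-7 8mer, averaged 99 ± 54.3 CPM in KO and 71.2 ± 37.4 CPM in WT (adjusted p = 0.429). Gstt1, a glutathione transferase gene, had no other family but its 6mer stood 84.5 bases from the centre of a long region, with 33 ± 4.98 CPM in KO and 58.6 ± 19.3 CPM in WT (log2 -0.69, adjusted p = 0.0747).

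By family, let-7 matches went with the small changes: of 37 tested members with one, 22 fell, 1 rose and 14 did not pass, with a median log2 fold change of -1.49. For the 24 tested members with a miR-30 match, the median was -1.34 and 15 fell. The families most often found beside miR-122 were miR-130 in 193 members, miR-103/107 in 123 and miR-15/16 in 115. Among 3' UTR regions with no miR-122 match miR-130 was in 6.60%, against 8.87% of members. miR-103/107 was in 5.66% of members and in 10.1% of those regions, and miR-15/16 in 5.29% and 10.1%, so the first of the 3 families was more frequent in the members and the others less so. Except for miR-2137 (0.184% of members and 0.182% of those regions), every other listed family was also less frequent in the members.

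The frequency of miR-130 came with a fixed spacing. In 143 of its 193 members the miR-130 match started exactly 2 bases 5' of the miR-122 match, which is the TGCACTCC run in which both matches use the same 4 letters. These were 85 6mer and 58 7mer-A1 members, since an A before CACTCC, as an 8mer or 7mer-m8 needs, breaks TGCACT. Of the 57 tested, 50 fell, none rose and 7 did not pass (median log2 fold change -2.91). Among 6mers with the shared run 27 of 31 tested fell (median -2.75), against 201 of 280 6mers without it (median -2.55). For 7mer-A1 members the counts were 23 of 26 with it (median -3.45) and 190 of 210 without it (median -3.31). For miR-19, 32 of its 74 members had the match 3 bases upstream, the spacing of TTGCACTCC. That run contains TGCACTCC, so these members are among the 143 with the shared miR-130 run and are not a separate set. In 32 of the 143 the overlapping miR-130 match was a 7mer-m8.

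**Figure D4:**
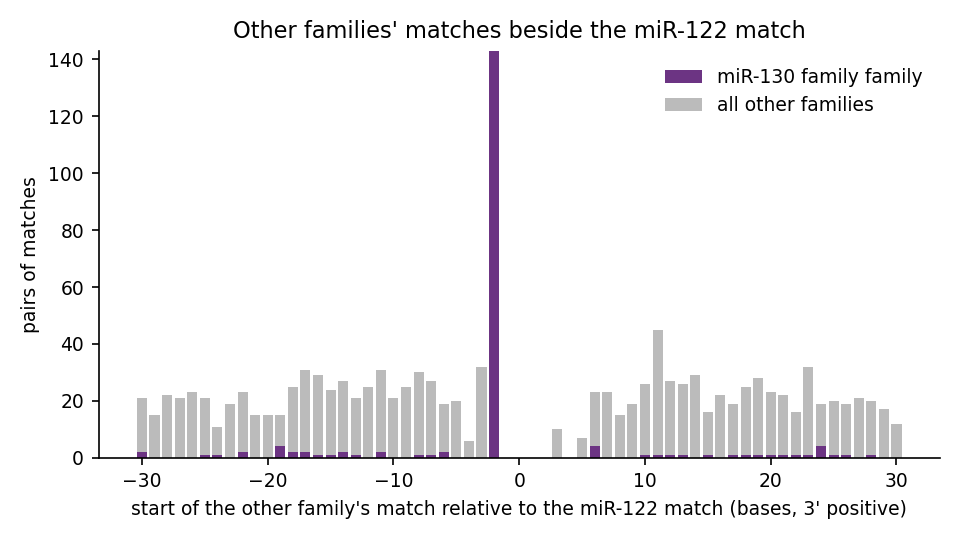
Number of pairs formed by a miR-122 match and a match of another family in the same member, against the start of the other match relative to the miR-122 match in bases, 3' positive. The miR-130 family stands at -2 with 143 pairs.

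Single members with these families show losses of different size. Fkbp4, a steroid receptor co-chaperone gene with the shared miR-130 run, held 7.95, 4.87, 8.41 and 8.16 CPM in KO, against 155, 155, 144, 168 and 156 CPM in WT (log2 -4.48, SE 0.30, adjusted p = 1.63e-08). Its WT values lay within 144 to 168 CPM, far above all KO values. Idh3a, a citric acid cycle enzyme gene with a 7mer-A1 of miR-103/107, averaged 5.93 ± 3.24 CPM in KO and 258 ± 34.1 CPM in WT (log2 -5.55). Bckdha, a subunit gene of branched-chain amino acid breakdown, had a miR-103/107 6mer and a miR-194 8mer, and averaged 10.02 ± 4.31 CPM in KO and 201 ± 66.7 CPM in WT (log2 -4.29). Atp6v1b2, a subunit of the proton pump of acidic organelles, had matches of 6 other families in a region of 134 bases, with a miR-122 6mer 36 bases from its centre. It held 48.7, 21.4, 40.2 and 26.1 CPM in KO and 159, 94.2, 179, 185 and 134 CPM in WT, a smaller but separate change (log2 -2.17, SE 0.30, adjusted p = 1.74e-05).

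The size of the loss differed little with the conservation of the match. The score is the mean phyloP of the 6 matched bases, in which positive values stand for slow change between species. Its median was 0.21 over the members and 1.28 over the miR-122 matches in coding sequence, where the reading frame is itself conserved, and it was at least 1 in 468 members (21.7%) against 61.9% there. Tested members of at least 1 had a median log2 fold change of -3.23, with 186 of 217 falling, and those under 1 a median of -3.12, with 490 of 595 falling. With thresholds of 0 and 2 the medians above and below were -3.13 and -3.22, and -3.18 and -3.16. Members that fell had a median phyloP of 0.35, those that did not pass 0.38, the 19 that rose 0.68 and those below the filter 0.15.

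At both ends of the scale large losses were found. Rbm47, an RNA-binding cofactor of mRNA editing, had the most conserved match named here (phyloP 3.03) and held 0.994, 1.95, 0.934 and 0 CPM in KO, against 26.8, 26.9, 32.5, 63.2 and 37.6 CPM in WT (log2 -5.27, SE 0.48, adjusted p = 2.36e-07). Lcorl, a transcription factor gene with phyloP 2.98, had a small change with overlapping groups, at 6.96, 19.5, 21.5 and 8.16 CPM in KO and 31, 47.1, 22.9, 38.5 and 16.1 CPM in WT (log2 -1.24, SE 0.43, adjusted p = 0.025). Its call was lost without KO replicate 1, where the log2 value was -0.73, without WT replicate 4, where it was -1.17, and with upper quartile scaling, where it was -1.01. G3bp2, a stress granule protein gene (phyloP 2.85), and Zdhhc3, a palmitoyltransferase gene (2.83), fell with log2 -2.28 and -3.51. At the other end Tspyl1, of the nucleosome assembly protein family (phyloP -2.31), averaged 3.72 ± 1.43 CPM in KO and 45.5 ± 7.39 CPM in WT (log2 -3.73, adjusted p = 5.07e-07). Cdh5, the endothelial cadherin (-2.26), Fto, an RNA demethylase (-1.70), and Rab43, a Rab GTPase of vesicle transport (-1.65), fell with log2 -2.03, -3.89 and -4.45.

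A second match in the same region was rare. Of the 59 members with more than 1 match, 29 were tested, 26 fell and 3 did not pass, with a median log2 fold change of -3.52, against -3.14 for members with 1. Arfip2, which binds Arf and Rac GTPases, had 2 matches and held 3.97, 0.975, 5.6 and 9.8 CPM in KO and 159, 117, 142, 179 and 235 CPM in WT (log2 -5.34, SE 0.43, adjusted p = 6.07e-08). Hykk, hydroxylysine kinase, also had 2 and averaged 6.9 ± 4.23 CPM in KO and 157 ± 28.1 CPM in WT (log2 -4.47). Its best match stood 22 bases from the centre, in a region with a 7mer-m8 of miR-22. The members with 3 matches were below the filter. Mllt1, a chromatin reader of the YEATS family, had no read in KO and 7.05, 6.73, 6.16, 7.69 and 10.7 CPM in the WT libraries, at least 9.50-fold lower against a floor of 3 counts over the KO group. Etf1, the translation release factor, had 8 reads in KO and 45 in WT, and its groups overlapped.

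Over all tested members 83.3% fell, and of 59 genes with at least 2 tested members, 40 had all of them lower, 12 had lower ones beside ones that did not pass, 2 (Ndrg3 and Tpm4) had a lower and a higher one, and 5 had none lower (Arf3, Ip6k1, Msi2 and Slc1a2 among them); these were named after their values were seen. The most regions, 4 each, were listed for Tfdp2, Tnrc6b and Fgfr2. In Tfdp2, a dimer partner of E2F factors, the 8mer region averaged 2.26 ± 1.52 CPM in KO and 60.1 ± 15.8 CPM in WT (log2 -4.86), a 7mer-A1 region 2.19 ± 1.86 CPM in KO and 45.1 ± 11 CPM in WT (log2 -4.38), and the other two were below the filter. In Tnrc6b, a relative of Tnrc6a, all 4 matches were 6mers. Its region with the highest WT level held 8.94, 9.75, 3.74 and 14.7 CPM in KO and 22.6, 31.4, 25.5, 32.5 and 21.5 CPM in WT (log2 -1.63, SE 0.42, adjusted p = 0.00413). The regions listed for Fgfr2 lie over Ate1 and Fam53b in RefSeq, and their gene is uncertain; the 2 tested fell with log2 -5.16 and -4.37.

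The gene lists that follow are descriptions. Over all tested members 83.3% fell with a median log2 fold change of -3.18, and a list near these values shows nothing particular to it. Reported miR-122 targets, a list gathered from knowledge of the field and not independent of these data, had 41 member regions in 31 genes. Of the 23 tested, 22 fell and 1 rose, with a median log2 fold change of -3.75, and 46.3% of the 41 matches had a phyloP of at least 1, against 21.7% of all members. Ccng1, cyclin G1, carried an 8mer and held 5.96, 4.87, 3.74 and 4.9 CPM in KO, against 67.7, 49.3, 68.6, 88.9 and 71.1 CPM in WT (log2 -3.94, SE 0.34, adjusted p = 1.24e-07). Cs, citrate synthase, had 6.96, 4.87, 4.67 and 14.7 CPM in KO and 168, 91.9, 128, 135 and 101 CPM in WT (log2 -4.11, SE 0.41, adjusted p = 4.91e-07). In both genes the groups were far apart. The 8mer of Ccng1 stood 21 bases from the centre, beside an 8mer of miR-130. The 7mer-m8 of Cs stood 28 bases from the centre. Hfe2, the iron regulator hemojuvelin (Hjv in RefSeq), had neighbouring regions with a 7mer-A1 and a 6mer. The 7mer-A1 region averaged 2.86 ± 3.32 CPM in KO and 121 ± 33.3 CPM in WT, and the 6mer region 3.4 ± 4.3 CPM in KO and 178 ± 39.8 CPM in WT (log2 -5.41 and -5.64). The 7mer-A1 region also had 7mer-m8 matches of miR-130 and miR-19.

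Other reported targets differed widely in size. Ankrd13c, a chaperone of the endoplasmic reticulum, fell with log2 -4.87 (adjusted p = 4.88e-07). P4ha1, a collagen prolyl hydroxylase subunit, fell with -4.13, Slc35a4 with -3.75, Adam10, a membrane shedding protease, with -3.42, and Tmed3, a cargo receptor of the early secretory path, with -3.40. The regions of P4ha1, Adam10 and Tmed3 each also had a 7mer of another family. Agpat1, an enzyme of phospholipid synthesis, fell with -2.70 and Mapre1, the microtubule end protein EB1, with -1.80. Of those named, the smallest change was that of Rhoa, a GTPase of the actin skeleton, whose 7mer-A1 lay 32.5 bases from the centre beside matches of miR-126a-5p and miR-130. It held 15.9, 26.3, 16.8 and 22.9 CPM in KO and 57.8, 60.6, 66.8, 43.6 and 44.3 CPM in WT (log2 -1.40, SE 0.32, adjusted p = 0.00185), and the groups did not overlap.

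Ndrg3 was the reported target with regions in both directions. Its 7mer-m8 region (chr2:156927404-156927473) had the match 4 bases from the centre and held 5.96, 3.9, 5.6 and 9.8 CPM in KO and 40.9, 35.9, 37.8, 67.5 and 52.4 CPM in WT (log2 -3.14, SE 0.37, adjusted p = 3.12e-06). About 1 kb away on the same strand, the 6mer region (chr2:156928589-156928658) had the match 26 bases 5' of the centre and held 63.6, 63.3, 93.4 and 264 CPM in KO and 22.6, 20.2, 22.9, 30.8 and 20.1 CPM in WT (log2 2.11, SE 0.49, adjusted p = 0.00186). Neither region's groups overlapped, so reads over the same 3' UTR were lower at the central match and higher at the other.

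Liver transcription factors had 17 member regions, of which 9 were tested; 8 fell, 1 did not pass and the median was -4.59. Hnf4a, a main factor of hepatocyte identity, had a 7mer-A1 and held 2.98, 3.9, 6.54 and 8.16 CPM in KO, against 109.9, 65, 141, 126 and 101 CPM in WT (log2 -4.52, SE 0.39, adjusted p = 1.38e-07). The groups were far apart. Gata4 kept 2 reads over the 4 KO libraries, against 582 over the 5 WT libraries, a WT over KO ratio of 257 with a 95% counting interval of 70.8 to 2127, and its 7mer-m8 stood 28 bases from the centre.

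Metabolic enzymes had 17 regions, of which 10 were tested; 9 fell and 1 did not pass, with a median of -3.78. Insig1, which restrains sterol synthesis, averaged 3.33 ± 1.98 CPM in KO and 112 ± 45.8 CPM in WT (log2 -5.10, adjusted p = 1.2e-07). Cyp8b1, the sterol 12-alpha hydroxylase of cholic acid synthesis, had a 6mer 49.5 bases from the centre of a long region with 7mer-A1 matches of miR-30 and miR-148. It held 29.8, 31.2, 47.6 and 39.2 CPM in KO and 117, 161, 131, 176 and 164 CPM in WT (log2 -2.19, SE 0.26, adjusted p = 3.37e-06), a smaller loss with separate groups.

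Solute carriers had 54 regions and 25 tested, with 21 lower, 1 higher and 3 that did not pass (median -3.22). Slc38a4, an amino acid transporter, averaged 31.7 ± 14.3 CPM in KO and 267 ± 81.1 CPM in WT (log2 -3.22), and Slc8b1, a mitochondrial calcium exchanger, 13.9 ± 4.19 CPM in KO and 110.4 ± 30.1 CPM in WT (log2 -2.82). Of 49 membrane traffic regions 22 were tested, with 16 lower, 3 higher and 3 that did not pass (median -3.16). Ap3m1, a subunit of the AP-3 sorting coat, held 7.95, 0, 6.54 and 4.9 CPM in KO and 351, 260.1, 480.2, 420.5 and 279 CPM in WT (log2 -6.19, SE 0.48, adjusted p = 4.48e-08), among the widest gaps of the lists. Its region also had a 7mer-m8 of miR-192. Pacsin2, which shapes membranes in endocytosis, averaged 3.87 ± 1.37 CPM in KO and 119 ± 15.3 CPM in WT (log2 -5.10).

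Chromatin genes had 30 regions and 9 tested, with 8 lower and 1 that did not pass (median -3.38). Hp1bp3, a linker histone relative, averaged 2.58 ± 1.5 CPM in KO and 149.8 ± 28.4 CPM in WT (log2 -5.76), and the histone demethylase gene Kdm4a 5.36 ± 2.55 CPM in KO and 210.5 ± 56.2 CPM in WT (log2 -5.15). Brd2, a reader of acetylated histones, and Cbx5, which encodes HP1 alpha, fell with -3.77 and -3.32. All 3 tested regions of the growth factor list fell (Ccng1, Rhoa and the TGF-beta receptor gene Tgfbr1, at -3.89). Of the microRNA machinery list 9 regions were members and 3 tested, with 2 of Tnrc6b lower and that of Tnrc6a not passing (median -1.63). The second Tnrc6b call (adjusted p = 0.0394) was lost without KO replicate 1, 2 or 3, with log2 values of -1.43, -1.14 and -1.44. It was also lost with upper quartile scaling (-1.48), DESeq2 (-1.63), no sex term (-1.43) and a replicate block (-0.51).

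The 19 members that rose had little of the pattern of the others. The match was a 6mer in 14 of them, and every KO library was above every WT library in 16, beside 14.4% of all tested regions. Only 4 of those that rose had enough reads for the low-count filter in both groups. Of all 816 tested members, 19, not the same set, passed it through the KO libraries only. For members that entered this way the direction was largely set by the filter. Nap1l5, an imprinted gene of the nucleosome assembly protein family, had an 8mer and held 49.7, 57.5, 57 and 188 CPM in KO and no read in WT, at least 123-fold higher against a floor of 3 counts over the WT group. Slc22a17, a lipocalin receptor gene (27.8, 44.8, 57 and 155 CPM in KO), Shisa7, of synaptic receptor complexes (21.9, 11.7, 27.1 and 58.8 CPM), and Vamp1, a synaptic vesicle protein (10.9, 15.6, 14 and 42.5 CPM), had no WT read either, and were at least 99.8-fold, 41.9-fold and 29.1-fold higher. All 4 were highest in KO replicate 4. Lsamp, a neuronal adhesion molecule, held 15.9, 22.4, 27.1 and 86.5 CPM in KO and 2 reads in all over the WT libraries. Timp2, a metalloproteinase inhibitor, averaged 29 ± 17 CPM in KO and 3.65 ± 2.4 CPM in WT (log2 2.84), and Msi2, an RNA-binding protein gene, 18.7 ± 10.4 CPM in KO and 2.49 ± 1.17 CPM in WT (log2 2.61).

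Markers of neurons moved with these rises. The list held 25 markers, and the summed levels of the KO libraries were 2364, 2651, 3132 and 9977 CPM, all far above the WT libraries. In all WT libraries 10 of them, Grin1, Stmn2 and Syn1 among these, were at 0. Glial markers summed to 704 to 1979 CPM in KO and 271 to 466 CPM in WT, and hepatocyte markers, all 10 with a region, to 12673 to 20172 CPM in KO and 24523 to 31695 CPM in WT. Stellate cell markers (8 of 8 with a region) summed to 909 to 1763 CPM in KO and 591 to 760 CPM in WT. Cholangiocyte markers (3 of 5 with a region) summed to 73.1 to 112 CPM in KO and 13.2 to 36.2 CPM in WT. In both lists every KO library was above every WT library. The groups overlapped for Kupffer cell markers (336 to 645 CPM in KO and 307 to 382 CPM in WT), endothelial markers (240.0 to 543 CPM in KO and 452 to 538 CPM in WT) and red cell markers (11750 to 18889 CPM in KO and 8326 to 12192 CPM in WT). KO replicate 4, highest in neuron markers and lowest in hepatocyte markers, over the 19 regions held a median of 2.24 times the average of KO replicates 1 to 3 (0.429 to 3.97), and more than 2 times in 10. The part of these markers in the rises, and in the losses, was not tested.

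The members were set beside the 2514 regions with a miR-122 match in coding sequence. Those took 0.925% ± 0.175 of all counts in KO (SD, n = 4) and 8.78% ± 0.284 in WT (SD, n = 5), a WT share 9.50 times the KO share, beside 4.36 times for the members, with no filter on low counts. By class the coding sequence ratios were 16.7 for 8mers, 11.8 for 7mer-m8, 11.7 for 7mer-A1 and 6.09 for 6mers. Past the filter, 1003 of 1072 tested regions fell and 5 rose, with a median log2 fold change of -3.78. The medians by class were -4.43 for 8mers, -3.83 for 7mer-m8, -3.99 for 7mer-A1 and -3.18 for 6mers, each farther from 0 than that of the 3' UTR members of the class. The order of the class medians was the same in both. The difference between 3' UTR and coding sequence was not tested. Regions of 3' UTRs with no miR-122 match had a WT over KO share ratio of 0.647. That ratio was not computed for coding sequence regions with no match, so the part of a general shift between the 2 classes was not tested.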

How the data were processed

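AGO CLIP-seq reads from 9 mouse livers had been aligned with Bowtie2 to mm10, per the submitters' processing notes; not given in the sources used here are the peak caller, duplicate treatment and counting. Deposited values were whole-number read counts per region and library, not normalized. The deposited log2 fold changes were the authors' WT over KO values, and a conservation score, the mean phyloP over 6 matched bases, was deposited by the authors for each match. Regions, classes, gene names and matches of 31 families were used as deposited.

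The 92645 regions went into edgeR 4.0.16 under R 4.3.3, with filterByExpr, TMM, a quasi-likelihood fit of genotype and sex, and Benjamini-Hochberg adjustment over 17182 regions at 0.05. SEs were derived from that test. CPM used library totals, and the floor of 3 counts was 0.807 CPM over KO and 0.713 CPM over WT. Intervals and floors cover counting error only. Replicates differed by more than counting noise (chi-square over its degrees of freedom, 2.79 to 9.50). Offsets and shares were computed with Python 3.11.15 and pandas 2.3.3.

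The members and gene lists were chosen with earlier results of these data known. Named regions were the 3 highest WT levels per match class, 8 higher in KO by smallest p, 6 that did not pass, 4 with most matches, 4 at each phyloP extreme, 15 reported targets, 2 for each of 3 co-occurring families, 3 genes with most regions, and, by a rule added after seeing the data, up to 4 per gene list. Some items that these rules take are not reported here. Alternatives were upper quartile scaling, DESeq2 1.42.0, TMM from regions with no miR-122 match, library totals, no filter, no sex term, a replicate block and leaving out each library.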

Additional observations from a re-analysis of the deposited data

Results flagged for a closer look

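Within groups of 4 or 5 libraries, 20 of 182 groups examined held a library whose gap to its nearest neighbour was large for the group's range; chance flags about 1 in 20 groups. KO replicate 4 was the high library in 12 of the 20. In regions higher in KO it held 188 CPM at Nap1l5 (next highest KO value 57.5), 264 CPM at the Ndrg3 6mer (next 93.4), 86.5 CPM at Lsamp (next 27.1), 42.5 CPM at Vamp1 (next 15.6) and 34.3 CPM at Msi2 (next 14.01). In regions lower in KO or below the filter it held 13.1 CPM at Agpat1, 8.16 CPM at Brd2 and at Zdhhc3, 6.53 CPM at a Tnrc6b 6mer, and 3.27 CPM at 2 regions listed for Fgfr2. These were few reads: 8 at Agpat1, 5 at Brd2 and at Zdhhc3, 4 at the Tnrc6b 6mer and 2 at each Fgfr2 region. At the Fgfr2 region over Ate1 all 4 KO libraries held 2 reads each. There KO replicate 4 was higher in CPM only through its smaller total, 612479 counts. Of the members below the filter KO replicate 4 had a share of 0.447% of counts, against 0.279% to 0.290% in the other KO libraries.

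The other KO values set apart were those of KO replicate 2: 4.87 CPM at Fkbp4 (low), 5.85 CPM at Tspyl1 (high) and 0 CPM at the Tfdp2 8mer (low). In WT, replicate 5 was high at Pxmp4 (411 CPM) and at Tmed3 (149 CPM), replicate 3 at Timp2 (7.92 CPM), replicate 4 at the Ndrg3 6mer (30.8 CPM) and replicate 2 at a 7mer-m8 region listed for Fgfr2 (13.5 CPM).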

How the results depend on the processing

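The median log2 fold change of the members stayed negative in every setting run. With no filter, 1267 of 2175 members fell and 94 rose, with a median of -2.45. Upper quartile scaling gave 667 lower, 24 higher and -2.95, with the median of all regions at 0.26, and DESeq2 gave 680, 19 and -3.23. Factors from regions with no miR-122 match gave 696, 17 and -3.31 (all regions at -0.10), library totals 682, 23 and -3.10 (all regions at 0.11), and no sex term 688, 21 and -3.15. Leaving out each library gave 465 to 828 lower, 12 to 25 higher, medians of -3.24 to -2.90 and WT over KO share ratios of 4.23 to 4.55. The share ratio was 5.65 for 7mer and 8mer members alone. Members whose rows were all in the 3' UTR class, and classes from those rows alone, were the same as in the report. TMM-scaled levels gave a share ratio of 4.35.

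Same-numbered libraries did not deviate together (r from -0.089 to 0.001 over 4 pairs), so the numbers were not taken as pairs. With a replicate block 582 members fell and 15 rose, with a median of -3.01, and the calls of G3bp2, Rhoa, a region listed for Fgfr2 and both Tnrc6b regions were lost. Of 73 named regions tested, 68 had a value in all 16 alternative settings, and 62 of these kept direction and call in each. The regions of Cdh5, Fto and Vamp1, 1 listed for Fgfr2 and 1 of Tnrc6b were below the filter in some settings that left out a library. None reversed where tested. Gstt1 passed with factors from regions with no miR-122 match and with no sex term (log2 -0.83 and -0.86), and Tnrc6a with those factors and with DESeq2 (-0.58 and -0.44).

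Depth leaves 1359 members below the filter, and SEs do not cover counting error where a group held few reads. Only 1 KO library was female. Without matched RNA levels, binding and mRNA amount cannot be told apart.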
